A study of Mus musculus with 8 samples.

Results

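Spliced transcripts assembled in the gaps between annotated genes, at a middle distance from the nearest gene, were examined in the border zone of infarcted and sham-operated mouse hearts. A locus was taken when every transcript of it had the intergenic class in the deposited annotation, at least 1 transcript had 2 or more exons, and its span lay at least 5 kb but less than 50 kb from the span of the nearest annotated locus on the same chromosome. Of 35299 loci in the deposited table, 536 (1.52%) met these conditions, which was 41.9% of the 1280 spliced intergenic loci. The choice used positions and exon structures, and no expression value. The other spliced intergenic loci were 414 under 5 kb and 330 at 50 kb or more. Intergenic here means absent from the annotation the authors used. Of the 536 loci, 164 (30.6%) shared the length of at least 1 intron with a gene of the later GENCODE release M21. Of these, 103 were matched to non-coding genes, 52 to protein-coding genes and 9 to pseudogenes or other types. All introns were shared in 58 loci, and the other matches were partial. The label intergenic therefore did not hold against that later annotation for the 164 matched loci. It was not contradicted for the other 372.

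The study compared 2 groups of C57BL/6J mice aged 12 weeks, sampled 2 weeks after surgery. The Sham group (n = 4) had the operation without infarction, and the MI group (n = 4) had a myocardial infarction, the death of heart muscle after its blood supply is cut. Polyadenylated long RNA was sequenced from the border zone, the tissue at the rim of the infarct or its counterpart in the Sham hearts. No transgene or drug is named in the labels of either group. The titles of all 4 Sham samples carry a remark on reanalysis that no MI title has, so a difference in how the 2 groups were handled and the infarction itself cannot be told apart.

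Long non-coding RNAs are transcripts of gene-like length with no long reading frame, often spliced and polyadenylated like messenger RNAs. They are usually less abundant and more restricted to particular cell types than messenger RNAs. In the heart, some act on chromatin, some act through the transcription of their own locus on a nearby gene, and for most no function is known. An assembled intergenic locus can also be a piece of a gene missing from the annotation, including a protein-coding one.

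The exon junctions of loci with the largest changes, and of 2 loci beside cardiac regulators, show what kind of transcript is meant. Each sequence is read from the GENCODE M21 transcript that shares the intron of the locus (build GRCm38), with the last 30 bases of the upstream exon in lower case and the first 30 bases of the downstream exon in capitals, 5′ to 3′ on the strand of the transcript. They are the reference sequence and were not read from these libraries. The loci from D030007L05Rik to 2310016G11Rik are among the 10 largest rises and 10 largest falls, and the last pair lies beside Hopx and Hand2.
D030007L05Rik: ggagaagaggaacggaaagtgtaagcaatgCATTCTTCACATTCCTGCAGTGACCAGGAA
Gm12602: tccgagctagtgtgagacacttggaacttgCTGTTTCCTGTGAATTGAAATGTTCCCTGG
2310015K22Rik: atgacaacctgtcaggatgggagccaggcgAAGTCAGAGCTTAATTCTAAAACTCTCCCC
Gm31600: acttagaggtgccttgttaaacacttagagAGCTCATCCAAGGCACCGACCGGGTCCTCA
2310016D03Rik: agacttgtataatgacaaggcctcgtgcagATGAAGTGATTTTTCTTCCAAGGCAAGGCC
2310016G11Rik: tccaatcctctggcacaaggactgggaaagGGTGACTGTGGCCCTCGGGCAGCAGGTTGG
Chaer1: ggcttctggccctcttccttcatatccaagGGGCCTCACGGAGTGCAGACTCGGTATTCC
5033428I22Rik: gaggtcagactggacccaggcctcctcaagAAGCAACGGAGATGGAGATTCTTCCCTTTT
In the deposited mm9 coordinates, counted from 1, these introns ran over 3965 bases of chromosome 13 in D030007L05Rik (chr13:70789320-70793284), 2288 bases of chromosome 1 in 2310015K22Rik (chr1:80221747-80224034) and 1131 bases of chromosome 5 in Chaer1 (chr5:77567609-77568739).

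Promoters could be printed for few loci. RefSeq promoters (GRCm38.p6) run from 250 bases before to 50 bases after each start. Of the loci matched to non-coding genes, 17 met the conditions set for a promoter. Among these conditions, the first intron of the matched transcript had to be shared. Its start had to lie close to a RefSeq start of that gene on the same strand. Shown are a locus with a large difference and one with a high level, both lower in MI. The capitals in the first mark 2 matches to the CCAAT box (letters CCAAT, both strands), and those in the second a match to the TATA box (letters TATAAA, both strands).
2310016D03Rik: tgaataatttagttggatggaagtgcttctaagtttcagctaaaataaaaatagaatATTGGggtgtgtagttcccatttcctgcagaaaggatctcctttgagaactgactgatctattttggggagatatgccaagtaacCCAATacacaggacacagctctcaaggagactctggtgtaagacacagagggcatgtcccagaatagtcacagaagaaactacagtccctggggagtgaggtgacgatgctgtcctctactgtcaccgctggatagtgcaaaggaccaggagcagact
Gm26795: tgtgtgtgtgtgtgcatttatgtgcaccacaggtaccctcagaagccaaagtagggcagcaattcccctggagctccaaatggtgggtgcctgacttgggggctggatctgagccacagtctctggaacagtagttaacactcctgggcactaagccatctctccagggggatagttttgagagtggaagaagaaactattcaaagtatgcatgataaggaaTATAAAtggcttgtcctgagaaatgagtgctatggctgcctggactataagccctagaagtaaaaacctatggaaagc
The first is chr12:30467309-30467608 on the minus strand and the second chr8:28593280-28593579 on the plus strand, both in GRCm38.p6. CCAAT occurred in 4 of the 17 promoters, against 37.4% of all 32851 promoters of the same length. TATAAA occurred in 1 of 17, against 13.6% of all promoters. The other motifs were also searched on both strands: the TEAD motif CATTCC was in 4 of 17 (14.7% of all promoters), the GATA motif AGATAA in 3 of 17 (11.2%) and the AP-1 motif TGACTCA in 1 of 17 (5.2%). CCAAT and TATAAA do not overlap each other in letters. A match describes the letters of the window and no binding was measured.

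The transcripts had few exons. Of the 536 loci, 274 had at most 2 exons in any transcript, 137 had 3, 70 had 4 and 55 had 5 or more, with 20 exons as the most. The median exonic length was 2846 bases (range 240 to 44587), against 1981 over all loci of the table, the median span 7624 bases and the median distance to the nearest annotated locus 18755.5 bases. Loci on the plus strand (274) and the minus strand (262) were about as many.

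Levels are given as the deposited normalised reads, which are read counts divided by 1 size factor per library. A single read was worth 0.663 to 1.58 normalised reads, at depths of 108 to 161 M reads in loci for Sham and 165 to 190 M reads for MI. In all 8 libraries, 480 of the 536 loci had reads, and 13 had none in any. The median over the 536 loci of the mean of 8 libraries was 34.0 normalised reads, 148 loci had a mean of at least 100 and 26 a mean of at least 1000. Per kb of exon, the median of the tested members was 16.4 normalised reads, against 197 over all tested loci of the table and 379 over the annotated ones.

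In MI, more of these loci were lower than higher. Loci with a mean of at least 10 normalised reads were tested by limma with an intensity trend on log2(value + 1), in a fit over all 19186 such loci of the table, with Benjamini-Hochberg adjustment over that table and a threshold of 0.05. Of the 536 loci, 406 were tested and 130 were not. Among the 406, 59 were higher in MI and 117 were lower, and 230 did not pass. As shares, 14.5% were higher and 28.8% lower, where 20.8% of all tested loci were called higher and 20.1% lower (40.9% in either direction). With a difference of at least 2-fold as well, 33 were higher and 77 lower, against 9.04% and 3.77% of the whole table. The 4 MI libraries lay wholly above or below the 4 Sham libraries in 157 loci (38.7%), a share near the 39.6% of the whole table. The median log2 difference, MI minus Sham, was -0.25 over the 406 loci, with quartiles at -0.87 and 0.40, and -0.017 over all tested loci. These shares and medians cover the loci that passed the minimum level. In bulk tissue, fewer cells of a type and less RNA per cell cannot be told apart, here or in what follows.

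**Figure D1:**
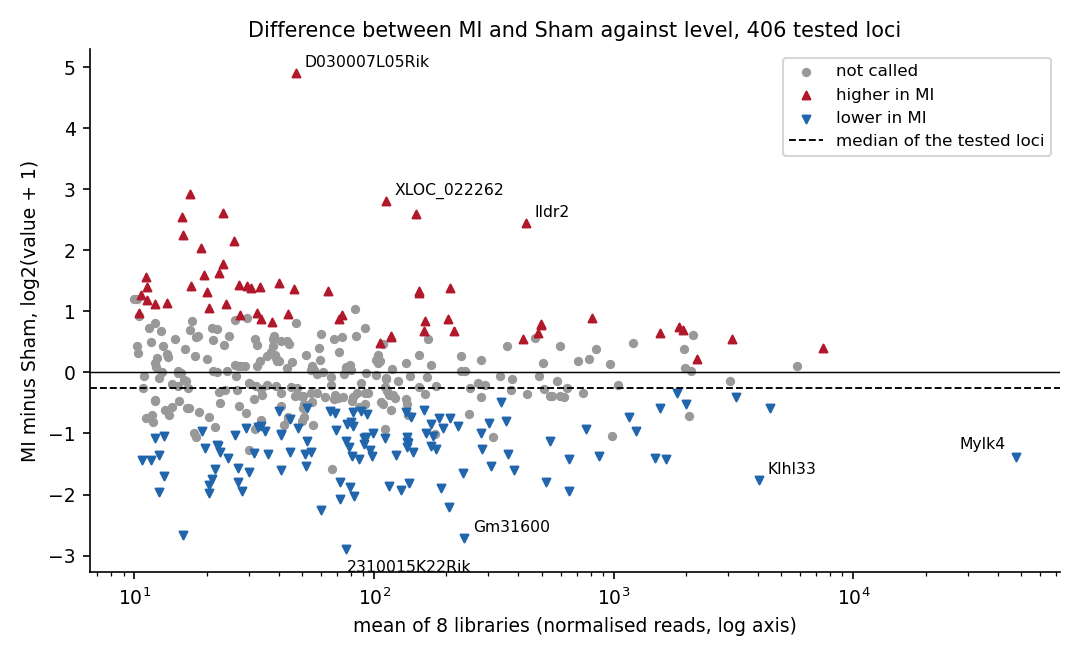
Each point is 1 of the 406 tested loci, with the mean of its 8 libraries in normalised reads (log axis) against the log2 difference MI minus Sham. Triangles pointing up are the 59 loci called higher, triangles pointing down the 117 called lower, grey points were not called, and the dashed line is the median of -0.25.

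The level scale bears on these counts. With library totals in place of the deposited size factors, the median log2 difference of all loci moved to 0.29 and that of these loci to 0.06, and 99 were called higher and 79 lower, where 44.5% of all tested loci were higher and 7.76% lower. Relative to all loci the median stayed lower under both scalings. The levels of cell type markers also differed between the groups. All 6 fibroblast markers with a locus were higher in MI, with a summed level of 89021 to 111123 normalised reads in Sham and 366067 to 584220 in MI. Their log2 differences were 0.50 in Pdgfra, 0.63 in Dcn and 1.03 in Tcf21. The matrix genes among them differed by more, at 2.83 in Col1a2, 3.22 in Col1a1 and 4.09 in Postn. Of the 6 cardiomyocyte markers 4 were lower and none higher, with a summed level of 7.86 to 9.40 M normalised reads in Sham and 5.22 to 6.66 M in MI. All 3 macrophage markers with a locus, all 3 T cell and all 3 B cell markers were higher. Of 4 smooth muscle markers 3 were higher, and Myh11 was not called (-0.31). None of the 3 endothelial markers with a locus was called. Of the 2 erythroid markers with a locus, Alas2 was lower and Hba-a2 was not called (both -0.80). Tnni3, Cd68, Lyz2, Kdr and Hba-a1 had no locus under their symbol. No marker with a locus was at 0 in all libraries, and the 6 cardiomyocyte markers were present in every one, as in heart muscle. The part of cell makeup in the results was not tested.

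MI replicate 2 stood nearest to Sham. In 75 of the 117 lower loci it was the highest MI library and in 30 of the 59 higher loci the lowest, which made 59.7% of the called members against 59.5% of all called loci. The atrial markers Sln, Myl7 and Myl4 were all called higher in MI, though the groups overlapped in each. Their summed level was 187 to 585 normalised reads in Sham and 274 to 12698 in MI, the highest in MI replicate 2. MI replicate 1 lay inside the Sham range in each, at 1.33 in Sln, 9.94 in Myl7 and 262 in Myl4. Without MI replicate 2, 56 loci were higher and 123 lower.

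The balance differed by level. Among members with a mean of 10 to 30 normalised reads, 23 were higher and 23 lower of 119 (19.3% each), where all loci of that level gave 14.9% higher and 8.21% lower. From 30 to 100, 12 were higher and 43 lower of 139, against 21.4% and 13.3% of all loci. From 100 to 300, 12 were higher and 28 lower of 81 (34.6% lower), where all loci of that level gave 34.0% higher and 16.3% lower. At 1000 or more, 6 were higher and 11 lower of 26 (23.1% and 42.3%), against 17.1% and 28.3% of all loci. In each of the 5 level ranges the share called lower was above that of all loci in the range. Spliced intergenic loci under 5 kb gave 41 higher and 64 lower of 310 with a median of -0.19, and those at 50 kb or more gave 27 higher and 117 lower of 254 with a median of -0.62. Within the members, the median was -0.04 at 5 to 10 kb, -0.24 at 10 to 20 kb and -0.34 at 20 to 50 kb. The differences between these distance ranges and level ranges are descriptions without a test.

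**Figure D2:**
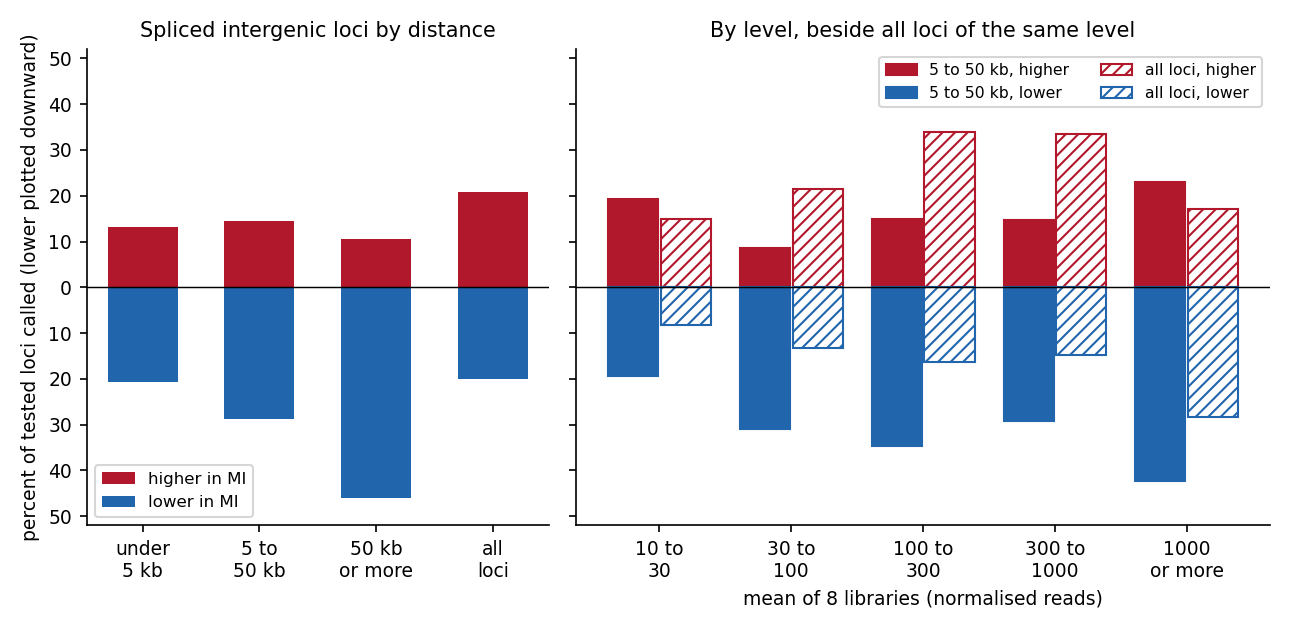
Percent of tested loci called higher (up, red) and lower (down, blue) in MI. At left are spliced intergenic loci by distance and all loci, and at right the 5 to 50 kb loci (filled) and all loci (hatched) by mean level. At 5 to 50 kb, 14.5% were higher and 28.8% lower, between the 20.6% lower under 5 kb and the 46.1% lower at 50 kb or more.

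Loci matched to protein-coding genes included the most abundant member. Of the 52 loci with such a match 40 were tested, 9 were higher and 6 lower, with a median log2 difference of 0.08. Of the 103 matched to non-coding genes 88 were tested, with 16 higher and 27 lower and a median of -0.25. Of the 372 without a match 272 were tested, with 34 higher and 82 lower and a median of -0.34. Over all tested loci, 20.8% were higher and 20.1% lower.

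The highest member, on chromosome 13 (chr13:32792694-32872582, minus strand, mm9), had the 13 introns of Mylk4, a kinase of the myosin light chain kinase family expressed in striated muscle. It had 53495, 76226, 57978 and 87209 normalised reads in Sham replicates 1 to 4 and 19466, 33476, 28471 and 23966 in MI replicates 1 to 4. Every MI library was below every Sham library. The mean was 68727 ± 15763 in Sham and 26345 ± 6009.9 in MI (SD, n = 4 each), and the log2 difference was -1.38 ± 0.19 (SE; adjusted p = 0.000264). Mylk4 alone made up 32.4 to 42.9% of the summed level of the 536 loci in Sham libraries and 16.2 to 23.5% in MI libraries. The members together took 0.109 ± 0.0140% of all reads in Sham and 0.0923 ± 0.00671% in MI, and without Mylk4 0.0683 ± 0.00515% and 0.0733 ± 0.00564%. Without Mylk4 the mean share was not lower in MI. These shares divide by the total of each library, so they are on the library total scale. They do not bear on differences taken with the deposited size factors.

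Klhl33, a member of the kelch-like family, was matched on 3 of 5 introns (chr14:51508258-51517386). Its values were 6379, 5829.6, 5624 and 7024 in Sham and 1574, 2323, 2013 and 1513 in MI, with no overlap. The difference was -1.76 ± 0.14 (adjusted p = 1.05e-05). Tmem170b, which encodes a membrane protein, was lower by less, at 3686 ± 460.4 in Sham and 2799 ± 297 in MI (-0.39 ± 0.11, adjusted p = 0.0137). With library totals as the scaling, Tmem170b had -0.09 and adjusted p = 0.496.

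Ildr2, an immunoglobulin-like membrane receptor, was among the 10 largest rises (chr1:168184428-168247138, 10 exons, 11 of 12 introns shared). It had 156, 146, 119 and 99.3 normalised reads in Sham and 856, 454, 896 and 707 in MI, and the lowest MI library exceeded the highest Sham library. The difference was 2.45 ± 0.22 (adjusted p = 2.79e-05). Tmem156, a membrane protein gene, had 4.77, 5.69, 10.2 and 6.31 in Sham and 30.5, 38.7, 18.9 and 35.8 in MI, again without overlap (2.04 ± 0.34, adjusted p = 0.000832). The neighbour of Tmem156, Fam114a1, was itself higher (1.10 ± 0.13, adjusted p = 0.000131), and Mael, the neighbour of Ildr2, was too low to test.

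Lrrc32, the docking receptor for latent TGF-beta, had 3024, 1865, 2842 and 2299 in Sham and 3903, 2927, 3125 and 4823 in MI. The groups overlapped and the difference was 0.56 ± 0.18 (adjusted p = 0.0311). The call ended without Sham replicate 2 (0.42, adjusted p = 0.0803), Sham replicate 4 (0.52, 0.0714), MI replicate 1 (0.52, 0.0789) or MI replicate 4 (0.42, 0.0824). Usp31, a ubiquitin protease with 16 exons, had 3214 ± 559 and 2892 ± 378 (adjusted p = 0.421), and Sec14l5, also with 16 exons, 704 ± 149.7 and 535 ± 113 (adjusted p = 0.106). Gm19410, with 20 exons the member with the most, was lower at 452 ± 81.1 in Sham and 259.6 ± 43.6 in MI (-0.79 ± 0.16, adjusted p = 0.00303). Apold1, an early response gene of endothelium, varied widely within Sham, from 867 to 3074, and did not pass (0.61 ± 0.35, adjusted p = 0.191). Without Sham replicate 3 it passed (0.93, adjusted p = 0.0327), and with library totals too (0.92, adjusted p = 0.0449). Zfp703, a zinc finger protein gene, had 2075 ± 437 and 2119.7 ± 547 (adjusted p = 0.939).

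The largest rise was D030007L05Rik, the non-coding gene whose junction heads the sequences above (chr13:70789162-70794845, plus strand, 2 exons). It had 3, 1, 1 and 2 reads in Sham replicates 1 to 4 and 151, 80, 109 and 130 in MI replicates 1 to 4. In normalised reads these were 3.58, 1.14, 1.14 and 3.15 against 100.1, 65.9, 89.8 and 113. It was at the edge of detection in all Sham libraries and well above it in all MI libraries. The pooled ratio MI to Sham was 42.7 with a 95% interval of 20.5 to 107, which covers counting error only and leaves out the animals. The fitted log2 difference was 4.91 ± 0.35 (adjusted p = 7.45e-06, the smallest of all members). The Sham mean lay below the minimum level for testing, so D030007L05Rik was tested only because of its MI level. The same held for Gm12602, Tmem156, XLOC_010639, XLOC_020438, XLOC_033127 and AC121603.3 among the largest rises. The annotated locus nearest to D030007L05Rik, Ice1, a subunit of the little elongation complex, was at 10719.9 ± 1256 and 9349 ± 786 (adjusted p = 0.126).

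Gm12602 was next (chr4:88745775-88774104, minus strand), beside Mtap, an enzyme of methionine salvage. It had 2, 3, 3 and 1 reads in Sham and 88, 15, 21 and 43 in MI, a pooled ratio of 11.8 (counting interval 6.06 to 26.2) and a log2 difference of 2.92 ± 0.48 (adjusted p = 0.000889). The MI libraries spread over nearly the whole range above Sham, with replicate 1 at 58.3 and replicate 2 at 12.4 normalised reads. Mtap did not pass (-0.14 ± 0.08, adjusted p = 0.154).

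The locus XLOC_022262, named by its assembly number because no gene matched, lay 9621 bases downstream of Klf4 on the same strand (chr4:55505819-55530520, 4 exons). Klf4 is a zinc finger transcription factor of vessel wall and epithelial cells. The locus had 29.8, 31.9, 23.9 and 22.1 normalised reads in Sham and 259, 140.00, 169 and 221 in MI, so that every MI library was far above every Sham library. The difference was 2.80 ± 0.23 (adjusted p = 1.54e-05), while Klf4 was at 6799 ± 2697 and 7814 ± 2154 (0.24 ± 0.27, adjusted p = 0.506).

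Further rises were also in loci without a match. XLOC_025989, upstream of the junction scaffold gene Magi1 on the other strand (chr6:94253643-94374798), had 43.0, 49.0, 36.4 and 36.3 in Sham and 312, 175, 270.1 and 271 in MI (2.59 ± 0.21, adjusted p = 1.23e-05). Magi1 was higher by less (0.46 ± 0.09, adjusted p = 0.00239). XLOC_010639, beside the metalloproteinase gene Adamts20 (chr15:94077460-94086038), had 8.36, 7.97, 2.27 and 6.31 in Sham and 41.8, 37.1, 33.8 and 49.7 in MI (2.62 ± 0.37, adjusted p = 0.000338), and Adamts20 was higher too (1.20 ± 0.22, adjusted p = 0.0016). XLOC_033127, downstream of the inhibitory Smad gene Smad6 (chr9:63783249-63785711), had 3.58, 7.97, 10.2 and 14.2 in Sham and 49.7, 19.8, 62.6 and 40.1 in MI (2.15 ± 0.44, adjusted p = 0.00315), and Smad6 did not pass (0.15 ± 0.12, adjusted p = 0.362). In all 3 loci the groups did not overlap. XLOC_020438, upstream of Tmem144, rose from 3 reads in each Sham library to between 22 and 59 in MI (2.55 ± 0.33, adjusted p = 0.000197).

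The largest fall was that of 2310015K22Rik (chr1:80221554-80226147, plus strand). It had 155, 87.7, 123 and 177 normalised reads in Sham and 13.9, 25.5, 10.7 and 20.9 in MI, with a wide gap between the groups. The difference was -2.89 ± 0.31 (adjusted p = 6.97e-05). The nearest annotated locus, Fam124b, moved the other way, from 78.1 ± 40.3 to 150.1 ± 28.0 (1.03 ± 0.29, adjusted p = 0.0166).

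Gm31600 (chr13:37853448-37862314) had 296, 502, 410.4 and 441 in Sham and 51.7, 94.7, 44.5 and 63.7 in MI. All 4 MI libraries were below all 4 Sham libraries (-2.71 ± 0.25, adjusted p = 2.57e-05). Its nearest annotated locus had no read in any library. 2310016G11Rik, on the strand opposite to Myh14 and upstream of it, a non-muscle myosin heavy chain gene (chr7:51932075-51933608), had 112, 121, 127 and 104 in Sham and 19.2, 34.6, 34.6 and 21.8 in MI (-2.08 ± 0.23, adjusted p = 9.15e-05). Myh14 was lower by less (-0.48 ± 0.09, adjusted p = 0.0024).

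2310016D03Rik, whose promoter is printed above, lies on chromosome 12 (chr12:31080738-31152255, minus strand) upstream of Sntg2, which encodes a syntrophin. It had 93.1, 89.97, 105 and 107 in Sham and 22.5, 36.2, 16.5 and 11.3 in MI, without overlap (-2.25 ± 0.31, adjusted p = 0.000313). Sntg2 went from 8.59 ± 5.04 to 85.4 ± 35.3 (3.22 ± 0.39, adjusted p = 0.000146), so the pair moved in opposite directions. Gm30684 had 44.9 ± 7.59 in Sham and 11.5 ± 4.31 in MI (-1.94 ± 0.32, adjusted p = 0.000834), beside Uri1, a prefoldin-like chaperone gene that did not pass (adjusted p = 0.165).

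Among falls without a match, XLOC_016128 (chr19:9681106-9699479) had 263, 393, 282 and 405 in Sham and 59.7, 113, 46.9 and 77.7 in MI (-2.21 ± 0.26, adjusted p = 0.000129). XLOC_020212 lay 12893 bases from Ccn1, a secreted matricellular protein gene (chr3:145287983-145297047), and had 112, 124, 160.3 and 129 in Sham and 23.9, 53.5, 24.7 and 29.7 in MI (-2.03 ± 0.27, adjusted p = 0.000222). Ccn1 was higher, from 4978 ± 487 to 10722 ± 2757 (1.08 ± 0.16, adjusted p = 0.0004). XLOC_032127 had between 12 and 38 reads per Sham library and 1 to 9 in MI (-2.67 ± 0.52, adjusted p = 0.00225), and its highest MI library was 9 times its lowest. XLOC_031495 had 20.7 ± 4.67 and 4.66 ± 1.60 (-1.96 ± 0.34, adjusted p = 0.00122). The MI means of XLOC_032127, XLOC_032204 and XLOC_031495 lay below the minimum level for testing. These loci were therefore tested only because of their Sham level.

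**Figure D3:**
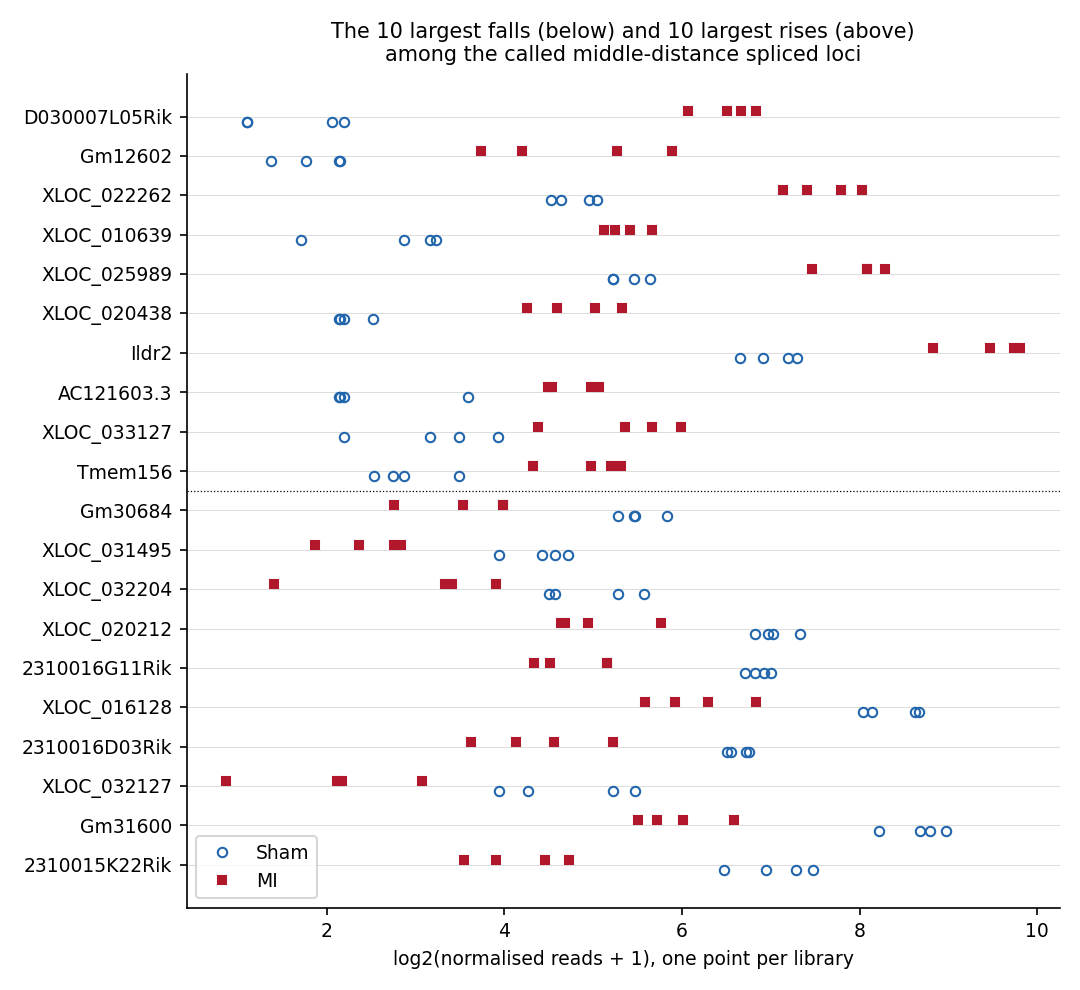
The 10 largest rises and 10 largest falls among called loci whose groups do not overlap, with log2(normalised reads + 1) on the axis and 1 point per library, open circles for Sham and squares for MI. D030007L05Rik had 1.14 to 3.58 normalised reads in Sham and 65.9 to 113 in MI, and 2310015K22Rik 87.7 to 177 in Sham and 10.7 to 25.5 in MI.

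The remaining abundant non-coding matches changed less. Gm6559 had 6085, 6604, 5239.7 and 4664 in Sham and 6366, 6311, 6034 and 5332 in MI, with overlapping groups (0.10 ± 0.11, adjusted p = 0.503, and 0.41 with adjusted p = 0.0300 under library totals). Gm26795 was lower, at 1616, 2204, 1742 and 1894 in Sham and 1174, 1402, 1268 and 1122 in MI (-0.58 ± 0.11, adjusted p = 0.00204), and Gm49390 was lower at 2354 ± 404 against 1632 ± 191 (-0.52 ± 0.13, adjusted p = 0.00754). With library totals as the scaling neither passed (adjusted p = 0.0897 and 0.256). Gm30735 was higher at 1526, 1119, 1723 and 1585 in Sham and 2193, 2209, 2836 and 2379.6 in MI (0.70 ± 0.14, adjusted p = 0.00227), and the groups did not overlap. Gm36535 was higher at 1368 ± 242 against 2366 ± 842 (0.75 ± 0.21, adjusted p = 0.0165), with MI replicate 1 at 3607 above the rest. Gm19951 ran from 1431 to 4352 in Sham and from 1037 to 2372 in MI and did not pass (-0.72 ± 0.33, adjusted p = 0.107), and Gm35533, beside the Kit ligand gene Kitl, did not pass either (0.38 ± 0.21, adjusted p = 0.175). Gm19951 passed without Sham replicate 3 (-0.96, adjusted p = 0.0365) or MI replicate 2 (-0.95, adjusted p = 0.0329). Gm35533 passed without Sham replicate 3 (0.56, adjusted p = 0.0356) and with library totals (0.69, adjusted p = 0.0106).

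XLOC_018334 was the most abundant locus without a gene match (chr2:77148164-77155416, 2 exons). It had 7731, 5342, 7386 and 5381 normalised reads in Sham and 6972, 9376, 9045 and 8393 in MI. The groups overlapped, since MI replicate 1 was below 2 Sham libraries, and the difference was 0.40 ± 0.14 (adjusted p = 0.0427). The call ended in the fits without Sham replicate 2 (0.31, adjusted p = 0.113), Sham replicate 4 (0.32, 0.114), MI replicate 2 (0.35, 0.095), MI replicate 3 (0.36, 0.101) or MI replicate 4 (0.40, 0.0795). It also ended with no minimum level (0.40, adjusted p = 0.0502).

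Loci beside genes with known roles in the heart were followed from lists of cardiac regulators, stress genes, ion channels, matrix genes and signalling genes. Of the 53 cardiac transcription factors and developmental regulators, 6 had a member as neighbour, with 8 members in all, of which 4 were tested, 3 were higher and 1 was lower. Over all tested loci the shares were 20.8% higher and 20.1% lower, and so few members show nothing beyond their own values. Of the 22 matrix genes, 3 members lay beside Fmod and Sparc, and 1 was higher and 1 lower. Of the 12 stress genes, 2 members lay beside Ankrd1, with 1 tested and not called. Of the 19 ion channel and calcium handling genes, 1 untested member lay beside Gja5, and none of the 20 signalling genes had a member beside it. The lists were chosen with earlier results of these data known.

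The region upstream of Hopx, a homeodomain protein of cardiac development without DNA binding, held 2 members on opposite strands. XLOC_023693 (chr5:77555741-77570296, plus strand) had 202, 255, 218 and 194 normalised reads in Sham and 68.9, 75.8, 45.3 and 57.6 in MI, all 4 MI libraries being lower. The difference was -1.81 ± 0.19 (adjusted p = 5.93e-05). Hopx itself fell from 34237 ± 1637 to 17153 ± 2599 (-1.01 ± 0.10, adjusted p = 5.32e-05). The other member, XLOC_024463 (chr5:77565084-77570296, minus strand), shared an intron with Chaer1, a non-coding RNA known for its part in cardiac hypertrophy, and had 0 reads in all 8 libraries.

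That 0 went with the structure of the table. All 3842 exonic bases assembled for the Chaer1 match lay in an exon of XLOC_023693 on the other strand, which made up 55.4% of the exonic bases of that locus. Across the members, 63 shared exonic bases with another locus, all with one on the opposite strand and 54 with another member. All 9 members without an exonic base of their own were at 0 in every library, as were all 347 such loci of the table, and the 13 members at 0 shared 91.6% or more of their exonic bases. How reads in shared bases were counted is not stated, and the cause of these values of 0 was not tested. Since every locus without an exonic base of its own was at 0, the 0 of the Chaer1 match gives no information on Chaer1. XLOC_023693 had 3091 exonic bases outside the overlap. Whether the libraries kept the strand is not given in the sources used here.

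**Figure D4:**
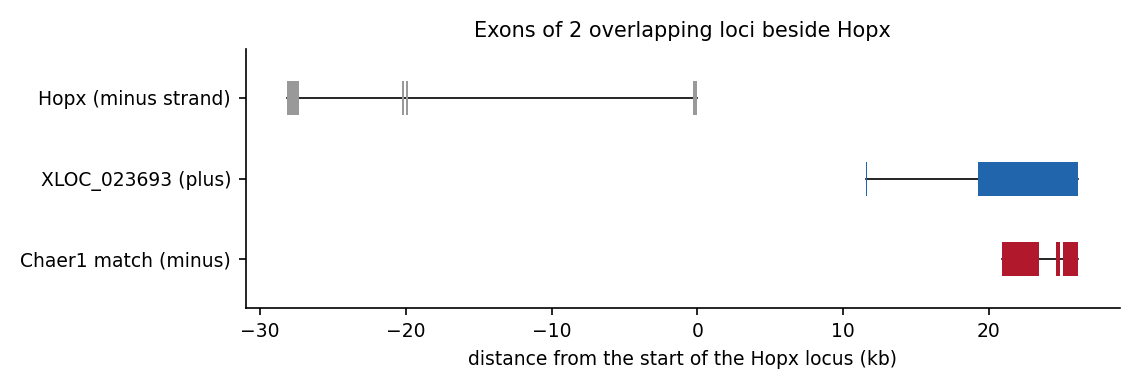
Exons (boxes) and introns (lines) of Hopx and the 2 loci upstream of it, as distance in kb from the start of Hopx, which is transcribed to the left. The Chaer1 match lies inside the long exon of XLOC_023693 and had 0 reads in all 8 libraries.

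Near Hand2, a basic helix-loop-helix factor of heart development, the same arrangement was found. 5033428I22Rik, 6790 bases downstream of Hand2 on the same strand (chr8:59810104-59836643), had 334, 424, 311 and 413 in Sham and 818, 506, 517 and 522 in MI. The groups did not overlap, MI replicate 1 stood apart from the other 3, and the difference was 0.65 ± 0.17 (adjusted p = 0.0124). Hand2 was at 4776 ± 1388 and 4822 ± 1606 (adjusted p = 0.993). Gm34030, on the other strand inside the exons of 5033428I22Rik, was at 0 in all libraries, and so was Gm17382, beside the homeobox gene Nkx2-5, with 99.9% of its exonic bases shared. Nkx2-5 itself was lower, from 14607 ± 2152 to 10221 ± 1343 (-0.51 ± 0.12, adjusted p = 0.0056).

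XLOC_005390, downstream of the homeobox gene Meox1 (chr11:101709074-101717604), had 52.5, 45.6, 40.9 and 59.9 in Sham and 113, 64.2, 89.8 and 107 in MI. The groups did not overlap (0.88 ± 0.23, adjusted p = 0.00997), and Meox1 rose by more, from 1509 ± 447 to 7671 ± 1555 (2.37 ± 0.20, adjusted p = 1.82e-05). XLOC_004910, downstream of the collagen-binding matricellular gene Sparc (chr11:55162177-55182743), had 83.6, 49.0, 65.9 and 53.6 in Sham and 26.5, 39.5, 13.2 and 25.3 in MI. It was lower in every MI library (-1.30 ± 0.32, adjusted p = 0.00867), while Sparc rose from 52382 ± 14736 to 216376 ± 36831 (2.07 ± 0.19, adjusted p = 3.13e-05).

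Fmod, a collagen-binding proteoglycan gene, rose from 201 ± 69.7 to 8246 ± 2775 (5.35 ± 0.26, adjusted p = 8.95e-07). XLOC_000458, 39293 bases upstream of it (chr1:135874080-135894799), had 101, 93.4, 95.5 and 80.4 in Sham and 167, 101, 147 and 157 in MI. The groups overlapped at 101 normalised reads, and the difference was 0.60 ± 0.19 (adjusted p = 0.0253). This call ended without Sham replicate 4 (0.54, adjusted p = 0.0642) and without MI replicate 1 (0.52, 0.0751), 3 (0.58, 0.0612) or 4 (0.55, 0.0727). XLOC_001186, on the other strand downstream of Fmod, had 26.9 ± 8.05 and 18.6 ± 4.64 (adjusted p = 0.221). Beside Ankrd1, a stress-responsive gene of the sarcomere that rose from 152877 ± 38757 to 564443 ± 98532 (1.90 ± 0.18, adjusted p = 3.44e-05), XLOC_016278 had 32.3 ± 12.5 and 28.3 ± 10.03 (adjusted p = 0.713). XLOC_015851, also beside Ankrd1, XLOC_020610 beside the connexin gene Gja5 and XLOC_007410 beside Klf6 had means of 3.38 to 6.93 normalised reads in either group and were not tested.

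Over all members, the direction of a locus and of its nearest annotated neighbour went together in little more than an even share. Both were tested in 328 pairs, and 176 (53.7%) had the same sign, with a Pearson correlation of 0.11 and a Spearman correlation of 0.14 over the pairs. The pairs share libraries, and 122 members share a neighbour with another member, so the correlation is a description. Among the 328 pairs, 47 members were called higher and 91 lower, and 70 neighbours were called higher and 66 lower. Both loci were called in 73 pairs, 17 with both higher and 26 with both lower. The member was higher and the neighbour lower in 7, and the member lower and the neighbour higher in 23. Whether these 4 counts differ from what the calls of either side alone would give was not tested. Loci under 5 kb had a Pearson correlation of 0.44 over 296 pairs with 62.2% of one sign, and loci at 50 kb or more 0.09 over 185 pairs with 55.7%. The difference between the distance classes was not tested.

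The share of one sign ran from 43.3 to 58.9% over the arrangements on the chromosome, and the differences between them were not tested. Members upstream of their neighbour on the opposite strand, a divergent arrangement, had the same sign in 43 of 73 pairs (Spearman 0.29). Both were higher in 3 of these pairs and both lower in 11, where 11 neighbours were called higher and 18 lower. Of all 93 tested members in this arrangement, 14 were higher and 31 lower. Members downstream on the same strand had it in 39 of 90 pairs (43.3%) with a Pearson correlation of 0.004 and a Spearman correlation of -0.07. Members upstream on the same strand had it in 49 of 85 pairs (Spearman 0.27) and members downstream on the opposite strand in 45 of 80 (Spearman 0.09). By distance, the same sign was found in 52.3% of pairs at 5 to 10 kb, 51.4% at 10 to 20 kb and 55.8% at 20 to 50 kb.

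**Figure D5:**
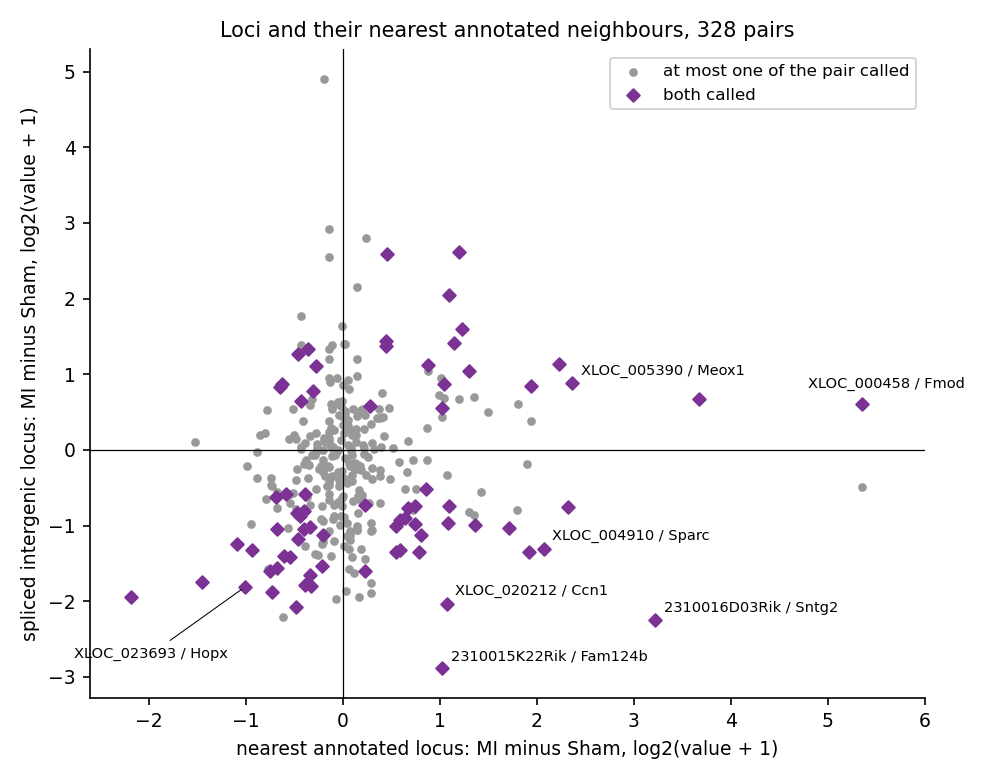
Log2 difference MI minus Sham of 328 members (vertical) against that of their nearest annotated neighbour (horizontal), with diamonds for the 73 pairs in which both were called. The labelled pairs include 2310016D03Rik and Sntg2, at -2.25 and 3.22, and XLOC_023693 and Hopx, at -1.81 and -1.01.

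The tested members had larger coefficients of variation between libraries than the tested loci as a whole. The median over the tested members was 24.1% in Sham and 24.9% in MI, where all tested loci had 13.5% and 12.1%. The median level was 62.0 normalised reads in the tested members and 868 in all tested loci. No comparison at equal level was made, so counting error and differences between animals were not separated. The largest spreads within a group were those of XLOC_003951, from 2.39 to 28.5 normalised reads in Sham, Gm16675, from 1.58 to 15.5 in Sham, and XLOC_032127 in MI. Gm16675 had 13.3 to 15.6 in all MI libraries, and neither it nor XLOC_003951 passed (adjusted p = 0.358 and 0.786).

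At the bounds of the distance range, the members just inside 5 kb were XLOC_026875 (5069 bases) and Gm12258 (5058 bases), with 16.4 ± 7.17 and 309 ± 76.3 normalised reads in Sham and 10.3 ± 4.17 and 411 ± 81.4 in MI. Just outside lay XLOC_014173 (4938 bases), with 15.6 ± 6.12 and 10.3 ± 3.54, and XLOC_028654 (4982 bases), with 10.1 ± 4.85 and 9.32 ± 3.89. Just inside 50 kb were XLOC_004625 (49885 bases), with 45.9 ± 12.0 and 36.0 ± 8.38, and the Rbm46 match XLOC_020447 (49971 bases), with 2.81 ± 0.563 and 3.99 ± 2.83. Just outside lay XLOC_006543 (50172 bases), with 24.8 ± 7.62 and 14.97 ± 6.83, and XLOC_003186 (50560 bases), with 3.54 ± 3.09 and 4.57 ± 5.38.

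On chromosome 18, the non-coding match AC121603.3 was among the 10 largest rises, with 3.58, 3.42, 3.41 and 11.0 normalised reads in Sham and 32.5, 21.4, 22.2 and 30.5 in MI (2.25 ± 0.39, adjusted p = 0.00116). The abundant locus XLOC_014917 had 4710.3, 5532, 5559 and 5651 in Sham and 3784, 4292, 3139 and 3237 in MI. All MI libraries were lower (-0.58 ± 0.11, adjusted p = 0.00174), and the nearest annotated locus, 1010001N08Rik, had -0.58 ± 0.18 (adjusted p = 0.025). With library totals as the scaling XLOC_014917 had -0.27 and adjusted p = 0.0709.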

How the data were processed

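Long RNA of 8 hearts was selected for poly(A) and sequenced, per the labels' protocols. Tools named in the submitters' processing notes are DESeq, HTSeq 0.5.4p2, Cufflinks 2.0.2 and TopHat2 2.0.5, on build mm9. Their settings are not stated in those notes as used here. The authors deposited 1 normalised signal per locus and sample, and the exons and class of each transcript. Each signal was a whole multiple of 1 step per sample (100% of values, within 0.000001), so read counts were recovered by multiplying back (108 to 190 M reads a library). The limit for a locus at 0 is 3 reads, or 1.99 to 4.73 normalised reads. Limits and 95% intervals cover counting error only. Replicates are stated to be biological. Groups come from the sample titles, while source and description fields of some samples name the other group.

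The test was limma 3.58.1 (R 4.3.3) with an intensity trend on log2(signal + 1), MI minus Sham, 2-sided, over loci with a mean of at least 10, and gave every adjusted p in the text (Benjamini-Hochberg over 19186 loci). The pseudocount of 1 understates differences of low loci. The minimum was set on the mean over both groups, so a locus low in Sham or in MI could pass through the other group. Values after ± are SD (n = 4) beside a level and SE beside a log2 difference. The fit was tested on simulated data. Alternatives were edgeR 4.0.16 and DESeq2 1.42.0 on the recovered reads, pseudocounts of 0.5 and 5, no minimum and a minimum of 50, TMM and library total scaling, a replicate block and leaving out each library.

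Symbols come from GENCODE M21, by equal intron lengths on the same chromosome and strand, in order within 5000 bases of the median offset of nearby loci. A match needed only 1 shared intron. The gene with the most shared introns gave the symbol, and a protein-coding gene was preferred where genes shared equally many. Of 1577 introns of the members 421 matched, and 4 (0.254%) did after each was lengthened by 1 base. Where loci on opposite strands overlap, their reads cannot be told apart.

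The members and gene lists were chosen with earlier results of these data known. Named loci are the 10 largest rises and falls among called loci with groups that do not overlap, the 5 highest means, the 3 with most exons, the 2 nearest each side of each bound, the 15 highest matched loci, those beside listed genes and the 3 with the largest spread within a group.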

Additional observations from a re-analysis of the deposited data

Results flagged for a closer look

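In 4 of 102 groups of 4 libraries, over the named and tested loci, 1 library lay far from the other 3 relative to the range of the group (Dixon's criterion at 95%). Chance flags about 1 in 20 groups, so this number is no more than chance gives. XLOC_014917 had 4710 normalised reads in Sham replicate 1, where the other Sham libraries had 5532 to 5651. XLOC_015026, the AC121603.3 match, had 11.04 in Sham replicate 4 (7 reads), where the others had 3.41 to 3.58. XLOC_020438 had 4.73 in Sham replicate 4 against 3.41 to 3.58, although all 4 libraries held 3 reads each and differ in the worth of a read. XLOC_030455, the 5033428I22Rik match beside Hand2, had 817.9 in MI replicate 1, where the other MI libraries had 506 to 522.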

How the results depend on the processing

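With library totals as the scaling, 8569 loci of the table were higher and 1493 lower, 99 members were higher and 79 lower, and the median of the members turned to 0.0569, beside a median of all loci that moved to 0.29. With a minimum mean of 50, 27 members were higher and 80 lower, of 226 tested. As a share of reads outside the mitochondrial genome, members took 0.1567% in Sham and 0.1229% in MI. Leaving out each library gave 42 to 56 members higher and 100 to 123 lower, and 131 of the 176 called members (39 higher, 92 lower) kept their call in all 8 such fits. No called member changed direction under any alternative run. edgeR gave 59 higher and 117 lower, DESeq2 59 and 126, and TMM 59 and 113. For the 51 tested loci picked by the naming rule, 808 of 849 alternative values kept direction and side of the threshold. Uncalled loci that changed sign were XLOC_003951 (-0.1096 by edgeR, -0.0926 by DESeq2, -0.3076 without Sham replicate 1, and up to 0.7328 without another library), XLOC_016278 (0.1057 with library totals, 0.0186 without Sham replicate 2, 0.1041 without MI replicate 4, and down to -0.4083 without another library), XLOC_029671, the Usp31 match (0.1623 with library totals), and XLOC_030369, the Zfp703 match (-0.1009 without Sham replicate 2, -0.0272 without Sham replicate 3, -0.1357 without MI replicate 4, and up to 0.1526 without another library). The cause was not tested. With the replicate number as a block, 64 members were higher and 132 lower, with 169 of the 176 calls kept and 27 gained. Of the loci picked by the naming rule, XLOC_018334 lost its call (adjusted p = 0.0514), and Gm35533 (0.0221), Sec14l5 (0.0342) and Apold1 (0.0376) gained one. Same-numbered samples had correlations of deviations of 0.146, 0.272, 0.16 and -0.001. For MI replicates 1, 2 and 3 the same-numbered Sham sample correlated most, with the next Sham sample at 0.116, 0.08 and 0.015. Sham replicate 1 correlated more with MI replicate 4 (0.284) than with its own number. The main fit did not take the numbers as pairs, and these values do not settle whether they are pairs. At 3 reads the floor of 1.99 to 4.73 normalised reads limits statements on the loci of few reads.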
